A study of Mus musculus with 6 samples.

Results

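Gdf15 and Fgf21 encode the hormones that are usually called mitokines, because cells with impaired mitochondria secrete them. They were taken from the deposited expression table by gene name, which gave 2 of 54532 genes, each with a single row (ENSMUSG00000038508 for Gdf15 and ENSMUSG00000030827 for Fgf21). The question was how strongly each gene was expressed in hearts that have lost MRPS5, a small-subunit component of the mitochondrial ribosome, and how far the mutant hearts differed among themselves. RNA had been sequenced from 6 hearts. The 3 control hearts (Ctrl) were from Mrps5 fl/fl mice, in which both Mrps5 alleles are flanked by loxP sites, and the 3 conditional knockout hearts (cKO) were from Mrps5 fl/fl;MCM mice, which carry in addition the tamoxifen-inducible Cre recombinase MerCreMer. All mice had received tamoxifen by intraperitoneal injection at 8 weeks of age, at 45 mg/kg per day on 5 days, and tissue was taken 12 weeks later. MerCreMer is driven in this line by the cardiomyocyte promoter of the alpha myosin heavy chain gene, so Mrps5 stays intact in the other cells of the heart. Because the controls had no MerCreMer, an effect of the transgene or of active Cre cannot be told apart from an effect of losing Mrps5.

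GDF15 is a distant member of the TGF-β family that acts on the hindbrain through the receptor GFRAL and its partner RET, where it lowers appetite. FGF21 is an endocrine fibroblast growth factor that needs the co-receptor β-Klotho, encoded by Klb, to signal through FGF receptors, and the liver is its main source in healthy animals. Both genes are known targets of the integrated stress response, in which kinases phosphorylate eIF2α, most translation slows and translation of the transcription factor ATF4 increases. Mitochondrial stress is relayed to this pathway by the protease OMA1, which cleaves DELE1, which in turn activates the kinase HRI. Both hormones are known to be released by heart and skeletal muscle in mitochondrial disease.

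Gdf15 lies on chromosome 8 from 70629393 to 70632456 on the minus strand (GRCm38), and its annotated transcripts have 2 and 3 exons with the same 303 coding codons. Fgf21 lies on chromosome 7 from 45613886 to 45615490, also on the minus strand, with 3 exons and 210 coding codons. No other gene in the table overlaps either of them. Since both genes are regarded as ATF4 targets, the 250 bases before each gene's start were searched for the core of the C/EBP-ATF response element (TGATGNAA), the cyclic AMP response element (TGACGTCA), the E-box CACGTG and the PAR-bZIP site TTACGTAA. Both strands were searched, and the sequences are from RefSeq (GRCm38.p6), printed 5′ to 3′ on the gene's strand, with matches in capitals.
Gdf15, chr8:70632457-70632706, minus strand: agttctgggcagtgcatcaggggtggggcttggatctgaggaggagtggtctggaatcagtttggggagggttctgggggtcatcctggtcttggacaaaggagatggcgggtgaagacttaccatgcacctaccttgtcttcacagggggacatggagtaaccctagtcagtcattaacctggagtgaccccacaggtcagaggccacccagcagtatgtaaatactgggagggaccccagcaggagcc
Fgf21, chr7:45615491-45615740, minus strand: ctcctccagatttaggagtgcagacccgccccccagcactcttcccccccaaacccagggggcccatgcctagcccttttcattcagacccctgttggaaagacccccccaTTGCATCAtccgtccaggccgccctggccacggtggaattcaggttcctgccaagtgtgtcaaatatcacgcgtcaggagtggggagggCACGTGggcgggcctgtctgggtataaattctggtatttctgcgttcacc

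The Fgf21 window holds the response element core on the opposite strand, as TTGCATCA at bases -139 to -132 from the start, and an E-box at bases -50 to -45. The printed Gdf15 window holds none of the 4 motifs. A second annotated Gdf15 start, at base 70632095, lies within the gene, and the window before it has an E-box at bases -83 to -78. Of the 32817 mouse promoter windows of 250 bases that were searched in the same way, 3.45% held the response element core, 6.02% the E-box, 1.55% the cyclic AMP response element and 0.113% the PAR-bZIP site. The core and the E-box occurred together, as before Fgf21, in 0.171%. A match describes the sequence and does not show that a factor binds there, and the absence of these letters from a window of this length says nothing about sites elsewhere.

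The deposited values are FPKM, fragments per kilobase of gene scaled to library size. FPKM multiplied by gene length fell on whole reads for 100% of values (within 0.01 of a read), so read numbers could be recovered, from 15989322 reads in cKO replicate 1 to 24875499 in Ctrl replicate 3. The library size implied by the values was 0.913 to 0.980 of the recovered total in Ctrl and 1.06 of it in each cKO heart. The scaling therefore holds a factor that differs between the groups, which matters for small differences. Mrps5 was at 5.20, 6.45 and 6.33 FPKM in Ctrl, against 1.12, 1.23 and 1.31 FPKM in cKO replicates 1, 2 and 3, so every library matched its label. cKO replicate 2 stood apart from the other hearts. It had no read from 4 Y-linked genes that were expressed in the other 5 hearts, and its read counts differed from the other cKO hearts by a mean chi-square per gene of 43.1 and 40.8, against 13.2 to 16.7 for every other pair within a group. The study describes its animals as all male, which the missing Y-linked reads of this heart go against, and the part of sex in its values was not tested. For Gdf15, Fgf21 and the genes set beside them within the mutant group, values are therefore given heart by heart. Each fit was repeated without this heart. Of 40 other named genes that were called, 35 were also called without it, and the 5 that were not are Furin, Oma1, Egr1, Sesn2 and Bcat2. Ddit3 and Pgpep1 gained a call without it.

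Gdf15 was low in every control heart and high in every mutant heart. Ctrl replicates 1, 2 and 3 had 2.41, 0.753 and 1.34 FPKM, which correspond to 85, 29 and 60 reads. cKO replicates 1, 2 and 3 had 20.8, 129 and 56.9 FPKM, which correspond to 652, 5594 and 2652 reads. The groups did not overlap, and the lowest cKO heart was far above the highest control. The same separation, every cKO heart above every Ctrl heart, was found for 3212 of the 12944 genes tested (24.8%). Ranked by FPKM within a heart, Gdf15 stood at places 8440, 11900 and 10349 in the controls and at places 2012, 347 and 756 in cKO replicates 1, 2 and 3.

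The group means of Gdf15 were 1.5 ± 0.839 FPKM in Ctrl and 69.0 ± 55.3 FPKM in cKO (SD, n = 3 each), a 46.0-fold ratio. On the log2(FPKM + 1) scale, which understates the change of low genes, the difference was 4.51 (SE 0.61). It passed the threshold of 0.05 with limma's moderated test adjusted over 12944 genes (adjusted p = 0.00290), and among these genes only 2 had a larger log2 fold change. In the same test 2110 genes (16.3%) were higher in cKO. The exact two-sided permutation test on FPKM gave p = 0.1, the smallest value that 3 against 3 hearts allow. Without cKO replicate 2 the difference was 3.88 (adjusted p = 0.00401 with limma). The labels say no more of the animals than a replicate number, so the p-values measure the spread between these 6 libraries.

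Fgf21 was close to the limit of detection in the controls and in cKO replicate 1, and was expressed in cKO replicates 2 and 3. Ctrl replicates 1, 2 and 3 had 0.110, 0.101 and 0.0435 FPKM, which rest on 2, 2 and 1 reads. cKO replicates 1, 2 and 3 had 0.186, 4.41 and 2.55 FPKM, which rest on 3, 98 and 61 reads. The groups did not overlap, but the counting interval of cKO replicate 1 (0.0384 to 0.545 FPKM, exact Poisson, 95%) covers the values of all 3 controls. The control intervals reach at most 0.398 FPKM, which is under the lower bound of cKO replicate 3 (1.95 FPKM) and of cKO replicate 2 (3.58 FPKM). These intervals cover counting error only.

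For Fgf21 the comparison of groups did not pass the threshold. The means were 0.0850 ± 0.0362 FPKM in Ctrl and 2.38 ± 2.12 FPKM in cKO (SD, n = 3 each). On the log2(FPKM + 1) scale the difference was 1.39 (SE 0.50), with an unadjusted p of 0.0281 and an adjusted p of 0.0730 from limma. Its mean over the 6 hearts, 1.23 FPKM, passed the filter of 0.5 FPKM only through cKO replicates 2 and 3. The call turned on the low end of the scale and on a single heart. Adding 0.1 in place of 1 before taking the logarithm gave a difference of 3.05 (adjusted p = 0.0492), and leaving out cKO replicate 1 gave 2.02 (adjusted p = 0.00315). Leaving out cKO replicate 2 gave 0.92 (adjusted p = 0.150). The exact permutation test again gave p = 0.1, the smallest possible.

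**Figure D1:**
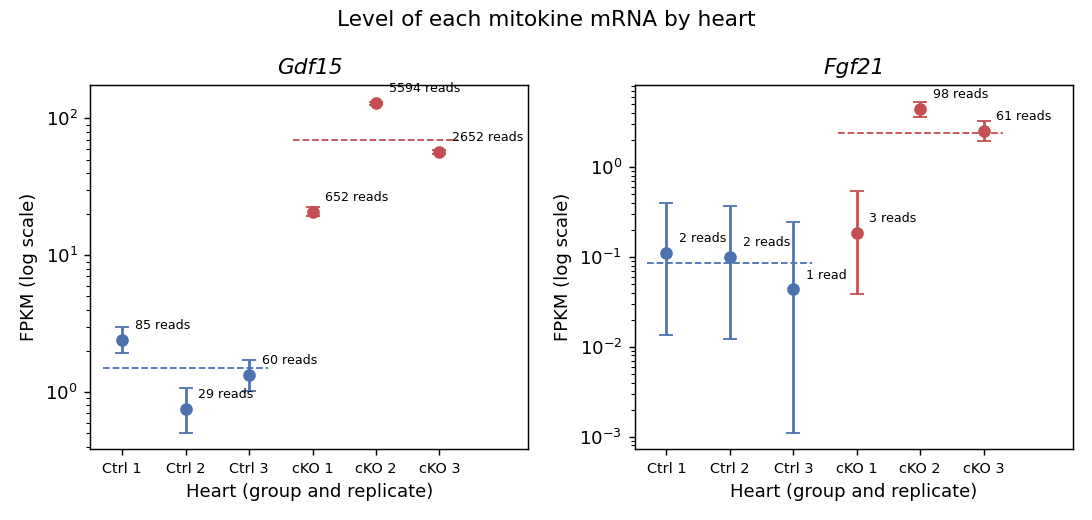
FPKM of Gdf15 (left) and Fgf21 (right) in each of the 3 Ctrl and 3 cKO hearts, on log axes with different ranges. Points carry 95% Poisson counting intervals and the number of reads, and dashed lines are group means; Gdf15 is at 20.8 FPKM or more in every cKO heart, while Fgf21 in cKO replicate 1 lies within the counting intervals of the controls.

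Relative to the pooled controls, with counting error alone, Gdf15 was 14.2-fold higher in cKO replicate 1 (95% interval 12.0 to 16.9), 88.2-fold in cKO replicate 2 (75.8 to 103) and 38.8-fold in cKO replicate 3 (33.3 to 45.5). The 3 intervals do not overlap, so depth does not limit the order of the cKO hearts for Gdf15. For Fgf21 the corresponding ratios were 2.27 (0.353 to 11.7), 53.8 (22.3 to 169) and 31.1 (12.6 to 99.1). The interval of cKO replicate 1 includes a ratio of 1, and those of cKO replicates 2 and 3 overlap each other. Both genes were lowest in cKO replicate 1 and highest in cKO replicate 2.

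The spread among cKO hearts was large for both genes. The highest cKO heart exceeded the lowest 6.22-fold for Gdf15 and 23.7-fold for Fgf21, and the coefficients of variation of FPKM were 80.1% and 88.9%. The SD of log2(FPKM + 1) over the cKO hearts was 1.29 for Gdf15 and 1.13 for Fgf21, against a median of 0.124 over all genes tested. Only 24 of the 12944 genes had a larger SD than Gdf15 and 38 a larger one than Fgf21. In the controls Gdf15 varied too, with an SD of 0.481 and a coefficient of variation of 55.9%, whereas Fgf21 had an SD of 0.0486 at its few reads. Without cKO replicate 2 the SD over the remaining pair of cKO hearts was 0.997 for Gdf15 and 1.12 for Fgf21, and without cKO replicate 1 it was 0.828 and 0.430.

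**Figure D2:**
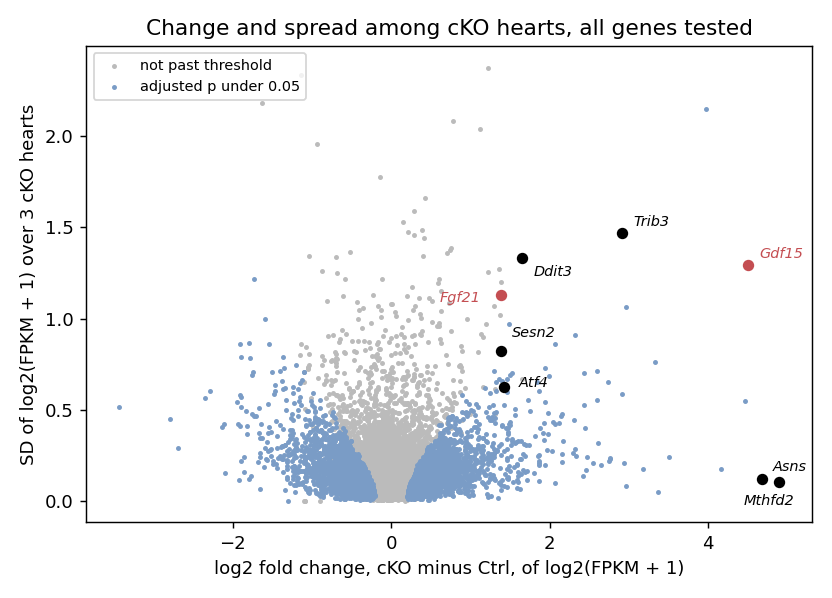
SD of log2(FPKM + 1) over the 3 cKO hearts (vertical axis) against the log2 fold change of cKO over Ctrl (horizontal axis) for the 12944 genes tested, each a point, blue where the adjusted p is under 0.05. Gdf15 (4.51, SD 1.29) combines a large change with a large spread, whereas Asns and Mthfd2 changed as much with little spread, and Fgf21 (1.39, SD 1.13) sits beside Ddit3.

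The order of the mutant hearts, replicate 1 below replicate 3 below replicate 2, was that of a minority of the genes that rose. Of the 2110 genes higher in cKO, 229 (10.9%) followed it, 298 (14.1%) were lowest in cKO replicate 1 and 1294 (61.3%) were highest there. A ratio of at least 3 between cKO replicates 2 and 1 was found in 8 of the 2110 genes (0.379%), and the median ratio was 0.929. Gdf15 is one of these 8 genes. The others, named after their values were seen, are Nppb, Nmrk2, Trib3, Sesn2, Lhfpl2, Slc1a4 and Cldn23. Lhfpl2 and Slc1a4 passed the filter only through the cKO hearts. A wide gap among cKO hearts raises the SE and makes a call less likely. The share of 0.379% therefore does not give the rarity of such gaps over all genes. Fgf21 and Ddit3, which were not called, are outside it. Among the 23 tested targets of the integrated stress response, called or not, the ratio was at least 3 in 4 (17.4%). The share over all genes tested, called or not, was not counted, so 17.4% stands without its background. It cannot be set against 0.379%, which covers called genes only. With 3 hearts the order of the mutant hearts is a description.

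The transcription factors known to act on Gdf15 or Fgf21 were examined next, as a list of 18 genes that were all tested. Of these, 7 rose, 5 fell and 6 did not pass the threshold, with a median log2 fold change of -0.031 against -0.016 for all genes tested; 16.3% of all genes rose and 17% fell. The count of 7 became 4 without Ctrl replicate 2, and that of 5 became 3 without Ctrl replicate 3; without cKO replicate 2 they were again 7 and 5. The 4 with the lowest adjusted p were Atf5, Esrrg, Ppara and Mlxipl. Atf5, a factor of the mitochondrial stress response that is itself translated under eIF2α phosphorylation, was at 32.3, 26.5 and 32.8 FPKM in Ctrl, against 231, 175 and 232 FPKM in cKO replicates 1, 2 and 3 (log2 fold change 2.76, adjusted p = 0.000165 with limma). It was thus high in all mutant hearts, and lowest in the one with the most Gdf15. The nuclear receptors Esrrg and Ppara and the glucose-responsive factor Mlxipl fell, by 0.63, 0.56 and 0.89 on the log2 scale. Ppara, which drives Fgf21 in the fasted liver, was at 9.20 to 12.0 FPKM in Ctrl and 6.51 to 7.08 FPKM in cKO.

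Atf4, Atf3 and Ddit3, which encode the main factors of the integrated stress response, were named after their values were seen. Atf4 was at 37.9, 41.8 and 39.3 FPKM in Ctrl, against 66.2, 153 and 125 FPKM in cKO replicates 1, 2 and 3 (log2 difference 1.43 with an SE of 0.28, adjusted p = 0.00998, and 1.18 with adjusted p = 0.0181 without cKO replicate 2). Atf3 was at 1.92 to 2.14 FPKM in Ctrl, against 3.65, 10.1 and 8.42 FPKM in the same cKO hearts (adjusted p = 0.0146, and 0.0298 without cKO replicate 2). Ddit3, which encodes CHOP, was at 6.78 to 8.06 FPKM in Ctrl, against 10.5, 71.0 and 22.3 FPKM in cKO. All 3 genes had the order seen for Gdf15 and Fgf21, with cKO replicate 1 nearest to the controls. Elsewhere on the list Egr1 had this order of cKO hearts, as did Ppargc1a and Mlxipl, which were lower in cKO. The rest of the list did not, among them Cebpb (52.4, 26.7 and 48.2 FPKM in cKO replicates 1, 2 and 3) and Cebpg (8.07, 11.1 and 11.9 FPKM). The difference for Ddit3 was 1.66 and missed the threshold (adjusted p = 0.0699); it passed without cKO replicate 1 (2.27, adjusted p = 0.0184) and without cKO replicate 2 (0.94, adjusted p = 0.0489). Trp53, which encodes the Gdf15 activator p53, was at 2.44 to 2.84 FPKM in Ctrl, against 3.38 to 5.43 FPKM in cKO (adjusted p = 0.0460), and this call was lost in 6 of 14 alternatives, including those without cKO replicate 1 or any 1 of the Ctrl hearts.

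Of 24 targets of the integrated stress response, 23 were tested: 16 rose, 2 fell and 5 did not pass the threshold. Over all genes tested, 16.3% rose and 17% fell. The median log2 fold change of the 23 targets was 1.39, beside -0.016 for all genes. This list, like the others, was chosen with earlier results of these data known, so its counts and median are a description. Pycr1, at a mean of 0.491 FPKM in Ctrl, passed the filter only through the cKO hearts. The 4 with the lowest adjusted p were Phgdh, Aldh18a1, Pycr1 and Asns, enzymes of serine, proline and asparagine synthesis. Phgdh was at 0.696 to 0.931 FPKM in Ctrl, against 35.1, 27.5 and 32.3 FPKM in cKO replicates 1, 2 and 3. Asns was at 1.23 to 2.49 FPKM in Ctrl, against 72.4, 63.6 and 61.7 FPKM in cKO. Neither gene was low in cKO replicate 1, the heart in which Fgf21 could not be distinguished from the controls. The 2 targets that fell were Vldlr, a lipoprotein receptor that went from a range of 41.9 to 51.0 FPKM in Ctrl to one of 10.7 to 19.8 FPKM in cKO, and Herpud1, a protein of endoplasmic reticulum-associated degradation that went from a range of 154 to 234 FPKM to one of 52.8 to 96.9 FPKM. Without cKO replicate 2 the counts were again 16 higher and 2 lower.

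The targets differed in how they were distributed over the mutant hearts. Of the 16 that rose, 9 (56.3%) were highest in cKO replicate 1 and 6 (37.5%) were lowest there, all 6 of these in the order of Gdf15 and Fgf21. Of all 2110 genes higher in cKO, 61.3% were highest in cKO replicate 1, 14.1% were lowest there and 10.9% had this order. The share highest in cKO replicate 1 was thus near that of all higher genes, and with 16 genes the counts are a description. The 9 were Phgdh, Aldh18a1, Pycr1, Asns, Mthfd2, Psat1, Shmt2, Mthfd1l and Psph. The 6 were Trib3, Sesn2, Slc7a1, Slc3a2, Nupr1 and Aldh1l2, and Slc7a5 was highest in cKO replicate 2. Trib3, a pseudokinase that restrains ATF4, was at 1.15 to 1.63 FPKM in Ctrl, against 4.75, 36.2 and 28.8 FPKM in cKO replicates 1, 2 and 3 (log2 fold change 2.92, adjusted p = 0.0153, 0.0521 without Ctrl replicate 2 and 0.0339 without cKO replicate 2). Sesn2, a stress-induced regulator of mTORC1, was at 1.24 to 1.72 FPKM in Ctrl, against 2.31, 8.47 and 7.20 FPKM in cKO (adjusted p = 0.0282). Its call was lost in 6 of 14 alternatives, among them the fits without any single heart other than cKO replicate 1 (adjusted p = 0.0627 without cKO replicate 2). Chac1, which degrades glutathione, and Cth, which makes cysteine, showed the same gap at 5.31, 27.1 and 29.0 FPKM and at 0.868, 3.70 and 3.01 FPKM, but missed the threshold (adjusted p = 0.141 and 0.0822). Both passed it without cKO replicate 1 (adjusted p = 0.0141 and 0.00647).

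**Figure D3:**
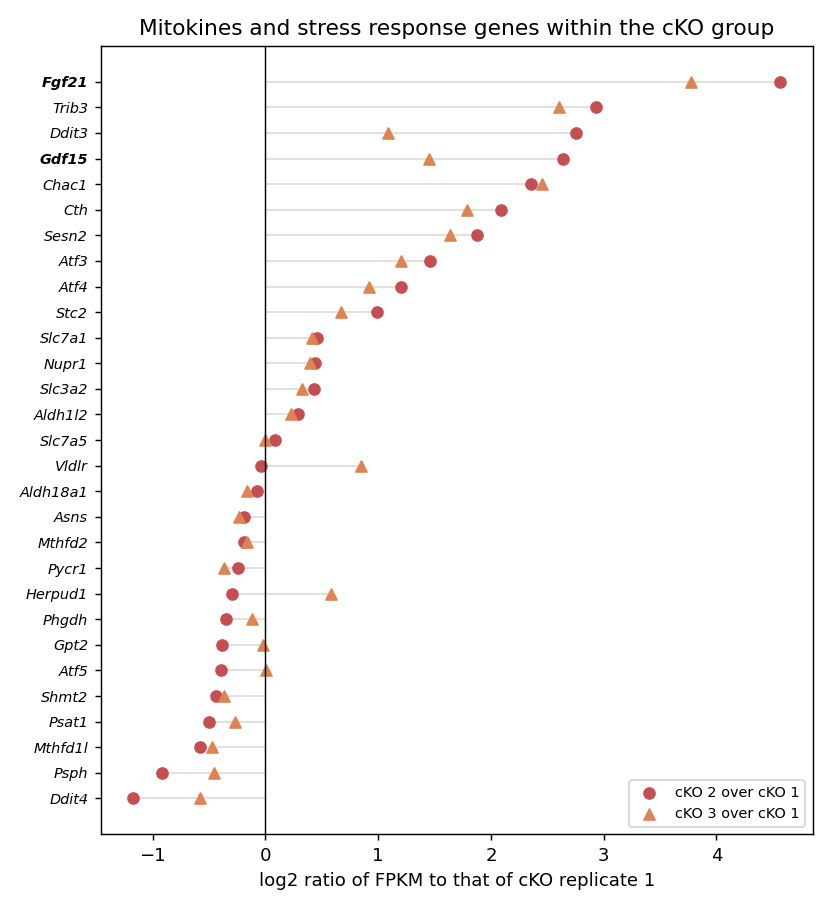
log2 ratio of FPKM in cKO replicate 2 (circles) and cKO replicate 3 (triangles) to cKO replicate 1 for Gdf15, Fgf21, the 23 tested targets of the integrated stress response and Atf3, Atf4, Atf5 and Ddit3, ordered by the circles. Fgf21, Trib3, Ddit3, Gdf15, Chac1, Cth and Sesn2 are at the top, with cKO replicate 2 at least 3.66-fold above replicate 1, while Asns, Mthfd2 and Phgdh lie at or left of 0.

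No gene of the upstream relay was called higher. Of the 6 genes tested, the 4 eIF2α kinases and Oma1 and Dele1, none rose, 2 fell and 4 did not pass the threshold, beside 16.3% of all genes that rose and 17% that fell. With 6 genes these counts are a description. Dele1 was at 50.2, 61.9 and 52.5 FPKM in Ctrl, against 25.1, 30.8 and 33.4 FPKM in cKO replicates 1, 2 and 3 (log2 difference -0.86 with an SE of 0.13, adjusted p = 0.00376, and 0.00888 without cKO replicate 2). Oma1 was at 12.1 to 14.3 FPKM in Ctrl and 10.7 to 11.3 FPKM in cKO, and its call (adjusted p = 0.0499) was lost in 12 of 14 alternatives, with every single heart left out except Ctrl replicate 1. The kinases HRI (Eif2ak1), PKR (Eif2ak2), PERK (Eif2ak3) and GCN2 (Eif2ak4) had log2 differences of 0.093, 0.28, 0.050 and -0.080, with adjusted p from 0.260 to 0.759; the sign for Eif2ak3 changed without Ctrl replicate 2 or cKO replicate 1. These kinases and the cleavage of DELE1 act at the level of protein, which was not measured.

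The receptor parts that are specific to each hormone were barely detected in these hearts. Gfral, the GDF15 receptor, had 0 reads in all 6 libraries, where 3 reads per library would be the upper limit that a count of 0 allows. Its partner Ret was at 0.628, 1.03 and 1.19 FPKM in Ctrl, against 0.716, 0.336 and 0.741 FPKM in cKO (adjusted p = 0.191). Klb, the co-receptor that FGF21 requires, had 17 reads over the 6 hearts, and Kl had 6. Among the FGF receptors, Fgfr2 had 68 reads in all and Fgfr4 10, and neither was tested. Fgfr1 was at 3.86 to 5.28 FPKM in Ctrl and 3.36 to 3.85 FPKM in cKO, Fgfr3 at 1.30 to 2.86 and 1.78 to 2.68 FPKM, and Fgfrl1, which lacks the kinase domain, at 6.51 to 7.24 and 4.28 to 6.20 FPKM. None of the 3 tested passed the threshold with limma (adjusted p from 0.0615 to 0.597), beside 16.3% of all genes that rose and 17% that fell. Fgfr1 and Fgfrl1 were each called lower in 1 of 14 alternatives, Fgfr1 without Ctrl replicate 2 (adjusted p = 0.0477) and Fgfrl1 without cKO replicate 1 (adjusted p = 0.0224).

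Proteases that mature or inactivate the hormones were measured as well. Proprotein convertases of the furin type cleave the GDF15 precursor, and fibroblast activation protein, encoded by Fap, inactivates FGF21. Of 3 genes tested in the list of 6, none rose, 2 fell and 1 did not pass the threshold (16.3% and 17% of all genes rose and fell). Pcsk6 was at 14.1, 17.2 and 15.0 FPKM in Ctrl, against 6.15, 7.20 and 9.18 FPKM in cKO replicates 1, 2 and 3 (log2 difference -0.96 with an SE of 0.14, adjusted p = 0.00365, and 0.0104 without cKO replicate 2). Furin was at 16.2, 19.1 and 24.3 FPKM in Ctrl, against 14.7, 8.67 and 12.7 FPKM in cKO (adjusted p = 0.0420), a call lost in 6 of 14 alternatives, including the fits without cKO replicate 2, without cKO replicate 3 and without Ctrl replicate 2 or 3. Pcsk7 was at 3.71 to 3.91 FPKM in Ctrl and 3.31 to 3.82 FPKM in cKO and did not pass. Fap, Dpp4 and Pcsk5 were under the filter; Fap was at 0.540 to 0.654 FPKM in Ctrl, against 0.188 to 0.330 FPKM in cKO.

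**Figure D4:**
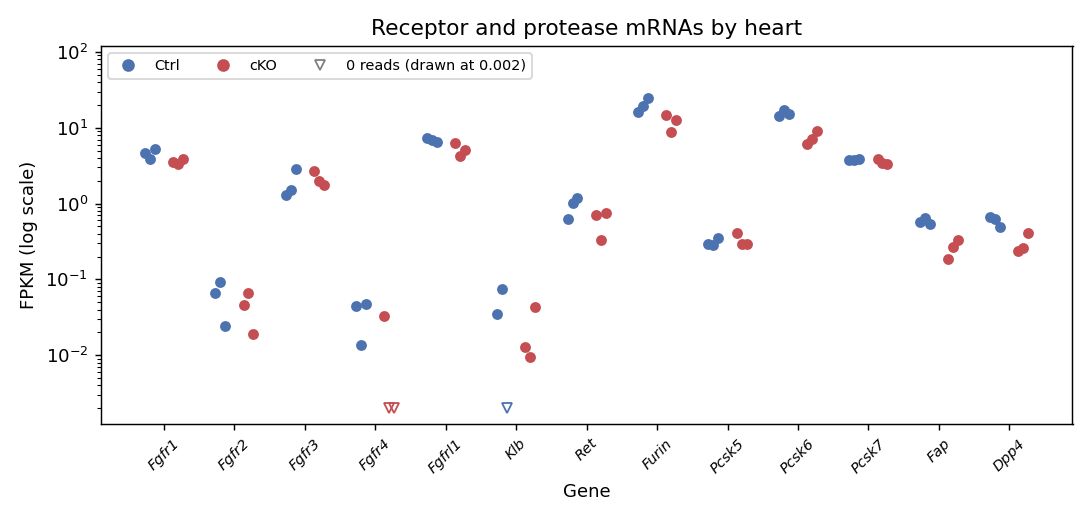
FPKM per heart, on a log axis, of FGF receptors, Klb, Ret and the proteases of GDF15 and FGF21, for 3 Ctrl hearts (blue) and 3 cKO hearts (red). Open triangles are hearts with 0 reads, drawn at 0.002 FPKM; Klb and Fgfr4 stay under 0.1 FPKM in every heart, and Pcsk6 is lower in each cKO heart than in any Ctrl heart.

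Genes induced by FGF receptor signalling through the MAP kinase pathway were read as a group. Of 12 tested, 3 rose, none fell and 9 did not pass the threshold, with a median log2 fold change of 0.16. For all genes the shares were 16.3% higher and 17% lower, and the median was -0.016. The 4 with the lowest adjusted p were Dusp5, Fos, Egr1 and Dusp4. Dusp5, a phosphatase of ERK, was at 1.96 to 2.59 FPKM in Ctrl, against 3.61, 5.73 and 5.79 FPKM in cKO replicates 1, 2 and 3 (adjusted p = 0.00814). Fos and Egr1 respond to many stimuli besides FGF, and their calls (adjusted p = 0.0241 and 0.0492) were lost in 5 and 8 of 14 alternatives, for both without Ctrl replicate 2, Ctrl replicate 3 or cKO replicate 3, for Fos without cKO replicate 1 and for Egr1 without cKO replicate 2. Dusp4, at 1.57 to 2.04 FPKM in Ctrl and 2.42 to 6.19 FPKM in cKO, did not pass (adjusted p = 0.0680). Without cKO replicate 2 the counts were 2 higher and 1 lower, and without Ctrl replicate 2 or 3 only 1 gene was higher. The Sprouty genes Spry1, Spry2 and Spry4, feedback inhibitors of FGF signalling, did not pass, with adjusted p from 0.119 to 0.809.

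The other FGF genes and the other ligand genes of the TGF-β family were counted in the same way, against 16.3% higher and 17% lower among all genes. Of 21 other FGF genes 8 were tested, of which none rose, 4 fell and 4 did not pass the threshold. Fgf2 was at 3.55 to 3.87 FPKM in Ctrl and 1.34 to 1.99 FPKM in cKO (log2 fold change -0.87, adjusted p = 0.00231). Fgf1, Fgf13 and Fgf9 also fell, by 0.63, 0.60 and 0.48 on the log2 scale. Of 32 other ligand genes of the TGF-β family 12 were tested, of which 2 rose, 2 fell and 8 did not pass, shares close to those of all genes. Tgfb2 was at 1.68 to 3.00 FPKM in Ctrl and 9.14 to 11.4 FPKM in cKO (1.80, adjusted p = 0.000928), and Inhba, which encodes a subunit of activin, at 0.361 to 1.20 and 4.08 to 6.16 FPKM (1.87, adjusted p = 0.00156). Both were high in all 3 mutant hearts. Bmp6 and Bmp4 fell by 0.96 and 0.67. All 8 genes named here were also called without cKO replicate 2.

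None of the 3 tested genes next to Gdf15 and Fgf21 on the chromosome was called higher, beside 16.3% of all genes tested, and with 3 genes this count is a description. On either side of Gdf15, Lrrc25 is 7909 bases away and Pgpep1 13978 bases, with log2 differences of 0.30 and 0.27 that missed the threshold (adjusted p = 0.141 and 0.0825). Pgpep1 passed it without cKO replicate 2 (0.34, adjusted p = 0.0453) and when mtDNA-encoded genes were left out of the scaling (0.35, adjusted p = 0.0411). Next to Fgf21, Fut1 is 1798 bases away and had 24 reads in all 6 hearts. Bcat2, 24174 bases away on the other side, encodes the mitochondrial aminotransferase of branched-chain amino acids. It was at 27.8 to 33.2 FPKM in Ctrl and 20.5 to 25.8 FPKM in cKO, a fall (adjusted p = 0.0443) that was lost in 10 of 14 alternatives, whichever single heart was left out.

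Profiles over the 6 hearts were compared by the root mean square difference of log2(FPKM + 1), after each gene was centred on its Ctrl mean. Among 12943 genes the 5 most like Gdf15 were Esr1, Asns, Mthfd2, Phgdh and Nmrk2, at differences of 0.550 to 0.985. Esr1 was at 0.530 to 1.01 FPKM in Ctrl, against 29.3, 57.5 and 29.4 FPKM in cKO replicates 1, 2 and 3. MerCreMer itself contains sequence of the mouse Esr1 ligand-binding domain, and a value per gene cannot tell reads of the transgene from those of Esr1. Nmrk2, a nicotinamide riboside kinase, was at 3.55 to 6.13 FPKM in Ctrl, against 54.1, 505 and 28.7 FPKM in cKO, high above all in cKO replicate 2. The 5 most like Fgf21 were Sesn2, Atf3, Slc1a4, Atf4 and Lhfpl2, at differences of 0.227 to 0.316. Slc1a4, a transporter of neutral amino acids, was at 0.294 to 0.661 FPKM in Ctrl, against 1.43, 5.19 and 3.66 FPKM in cKO. Lhfpl2 was at 0.263 to 0.359 FPKM in Ctrl, against 1.12, 3.86 and 2.56 FPKM in cKO. Like Fgf21, both passed the filter only through cKO hearts, where they are high. This measure takes the size of a change into account, so Gdf15 and Fgf21 were at a difference of 2.23 from each other. Fgf21 was in place 93 for Gdf15, but Gdf15 was in place 12889 of 12943 for Fgf21, so their profiles were not alike by this measure. Likeness over 6 hearts is a description, as all comparisons share the same libraries.

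Markers of the cell types that heart tissue can hold were compared beside these results. Their counts stand beside 16.3% higher and 17% lower among all genes. In bulk tissue, fewer cells of a type cannot be told apart from less RNA per cell. Of 10 cardiomyocyte markers 7 fell and none rose, with a summed level of 20088 to 24348 FPKM in Ctrl and 11251, 18826 and 13637 FPKM in cKO replicates 1, 2 and 3. The tissue therefore carried the defining transcripts of heart muscle in all libraries. Of 8 macrophage markers, cells that can also make Gdf15, none rose and 1 fell. Their sum was 261 to 351 FPKM in Ctrl and 295, 195 and 272 FPKM in cKO, lowest in the heart with the most Gdf15. Lyz2 and C1qa make up most of this sum. Like them, Csf1r, Cd163, Mrc1 and Itgam were lowest in cKO replicate 2. Adgre1 (4.29, 5.20 and 5.12 FPKM in cKO replicates 1, 2 and 3) and Cd68 (8.79, 9.17 and 7.15 FPKM) were highest there. Hepatocyte markers, of interest because the liver is the main source of Fgf21, summed to 1.16 to 2.32 FPKM in Ctrl, against 0.792 to 1.86 FPKM in cKO, and Alb had 10 reads over all hearts.

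Other cell types varied between hearts of both groups. The 5 atrial markers summed to 994, 147 and 27.0 FPKM in Ctrl replicates 1, 2 and 3 and to 107, 223 and 739 FPKM in cKO replicates 1, 2 and 3, and none passed the threshold. The control with the most atrial signal was also the one with the most Gdf15, whereas among the mutant hearts the atrial sum was highest in cKO replicate 3 and Gdf15 in cKO replicate 2. Of 4 adipocyte markers tested none passed, and of 6 endothelial markers 3 fell. Among 6 fibroblast markers 2 rose, Col1a1 and Postn, and 1 fell. Of 8 skeletal muscle markers 2 were tested and both fell. Nppb, the natriuretic peptide of the strained ventricle, followed the order of Gdf15 and Fgf21 in the mutant hearts, at 800, 3352 and 1203 FPKM in cKO replicates 1, 2 and 3 against 75.2 to 385 FPKM in Ctrl (log2 fold change 2.96, adjusted p = 0.0192, and 2.37 with adjusted p = 0.0394 without cKO replicate 2). Nppa had the same order, at 469, 1127 and 938 FPKM in these cKO hearts. In Ctrl replicates 1, 2 and 3 it was at 1062, 144 and 103 FPKM. Nppa did not pass the threshold with limma (adjusted p = 0.176), but did without Ctrl replicate 1 (adjusted p = 0.00932). The part of these marker differences in the levels of Gdf15 and Fgf21 was not tested.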

How the data were processed

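RNA-seq of heart tissue from 3 Ctrl and 3 cKO mice was used, grouped by sample title. The sources state ventricular tissue, poly-A selection and paired-end reads. The atrial marker sums nevertheless ranged from 27.0 FPKM in Ctrl replicate 3 to 994 FPKM in Ctrl replicate 1. Whether some samples held atrial tissue was not tested. The authors filtered reads for adapters and quality, aligned them with HISAT2 2.0.5 and counted reads per gene with featureCounts 1.5.0-p3. They computed the deposited FPKM values from read count and gene length, which is an other, gene-level value in the deposited table. Strand setting and handling of multiply mapped reads are not given in the sources used here. The labels name another mouse build, but of 54409 gene identifiers shared with GENCODE M21 all had the same chromosome and 53499 the same start and end, so coordinates are GRCm38. The labels place tissue collection 12 weeks after tamoxifen and were followed where the methods instead give that number as the age. The authors' test used DESeq2.

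Reads were recovered as FPKM times gene length divided by the value of a read. The 12944 genes whose mean reached 0.5 FPKM were tested with limma 3.58.1 in R 4.3.3 on log2(FPKM + 1), two-sided, with an intensity trend, no covariates and Benjamini-Hochberg adjustment over all of them at 0.05. The fit was checked on simulated data. Intervals are 95% exact Poisson or binomial limits. Alternatives were a pseudocount of 0.1, no filter, a minimum of 1 FPKM, median-of-ratios scaling, scaling without mtDNA-encoded genes, no trend, a replicate block, voom on recovered reads and omission of each heart. The members and gene lists were chosen with earlier results of these data known. Named are both members, the measured receptor, protease and relay genes, in longer lists the 4 genes with the lowest adjusted p, the 5 most similar profiles and the nearest neighbours. Where 2 rows were named Ddit3, the row with reads was used.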

Additional observations from a re-analysis of the deposited data

How the results depend on the processing

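Gdf15 was called higher under each of 14 alternatives, with a log2 fold change of 3.88 to 5.35 and an adjusted p of 0.00215 to 0.0150. Fgf21 was higher in cKO under all 14, at 0.92 to 3.97 (adjusted p 0.00315 to 0.173), and passed the threshold in 2 of them, with a pseudocount of 0.1 (3.05) and without cKO replicate 1; omitting a heart gave values from 0.92 to 2.02. Its levels in Ctrl rest on 1 or 2 reads per heart, which limits any ratio. Over all genes, omitting a heart left 1396 to 1977 higher and 1423 to 2011 lower, with the smallest counts without Ctrl replicate 3 (1396 and 1432) and Ctrl replicate 2 (1423 lower). When mtDNA-encoded genes were left out of the scaling, 2717 genes rose and 1609 fell, so that higher genes made up 62.8% of calls in place of 48.9%. Among 56 other named genes, 710 of 783 comparisons kept direction and call, 59 lost and 12 gained the call, and 2 reversed, both for Eif2ak3 (-0.013 without Ctrl replicate 2 and -0.034 without cKO replicate 1, in a range of -0.034 to 0.13 over the hearts omitted). Same-numbered hearts did not deviate together (correlations of -0.055, 0.17 and -0.015). With 3 hearts per group this cannot exclude pairing. The paper names littermate controls, but the labels do not say which hearts share a litter. With the replicate block, Gdf15 had an adjusted p of 0.0102 and Fgf21 one of 0.0637 from limma. Both were on the same side of the threshold as without the block.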

Other observations

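Among 18 tested genes for other secreted factors of stressed heart or muscle, 7 rose, 5 fell and 6 did not pass the threshold, beside 16.3% and 17% of all genes tested. Ostn, which encodes osteocrin, a ligand of the natriuretic peptide clearance receptor, was at 0.0581 to 0.258 FPKM in Ctrl, against 12.6, 5.84 and 5.62 FPKM in cKO replicates 1, 2 and 3 (log2 fold change 2.92, adjusted p = 0.00110 with limma). At a mean of 0.128 FPKM in Ctrl, it passed the filter only through the cKO hearts, where it is high. Fstl3, an inhibitor of activins, was at 1.61 to 2.10 FPKM in Ctrl, against 9.64, 7.50 and 5.77 FPKM in cKO (1.60, adjusted p = 0.00148). Both were highest in cKO replicate 1, the heart with the least Gdf15 and Fgf21. Il15, a myokine, was at 14.6 to 16.6 FPKM in Ctrl and 3.01 to 5.70 FPKM in cKO (-1.67, adjusted p = 0.00153), and Fndc5, the precursor of irisin, at 143 to 154 and 92.1 to 101 FPKM (-0.63, adjusted p = 0.00213). Without cKO replicate 2 the counts were 5 higher and 4 lower; 4 were higher without Ctrl replicate 2 or cKO replicate 3, and 3 were lower without Ctrl replicate 3 or cKO replicate 1.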
